A study of Bos taurus with 20 samples.

Results

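The prostanoid synthesis and breakdown enzymes were followed in the endometrium, the lining of the uterus, of 10 cows (Bos taurus), each sampled at an early and at a late time after calving. The 10 genes were chosen by name from the probe annotation of the arrays: PLA2G4A, PTGS1, PTGS2, PTGES, PTGES2, PTGES3, PTGDS, PTGIS, TBXAS1 and HPGD. They are carried by 25 of the 43653 probes, and all 10 were among the 19423 genes tested. The early group held biopsies taken 42 to 86 days after calving (mean 60.1 ± 13.3, SD, n = 10) and the late group biopsies of the same cows at 343 to 436 days (mean 388.9 ± 27.5, SD, n = 10). All biopsies were taken with forceps 7 days after oestrus, from the horn of the uterus next to the ovary with the corpus luteum, from cows with no treatment or genetic change named in the labels. Each biopsy was hybridised to 1 Agilent bovine array with Cy3. The late biopsy always came second in an older animal, so period, age and sampling order cannot be told apart, and the labels give neither breed nor age.

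Prostanoids are short-lived lipid signals made in steps. Phospholipases free arachidonic acid from membranes, the cyclooxygenases PTGS1 and PTGS2 turn it into prostaglandin H2, and terminal synthases turn that into prostaglandin E2, prostaglandin D2, prostacyclin or thromboxane A2, while HPGD inactivates prostaglandins inside cells. In the ruminant uterus this pathway is known for the prostaglandin F2alpha pulses that end the life of the corpus luteum, for the luteotropic action of prostaglandin E2, and for the inflammation and repair that follow calving.

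Levels below are log2 signals minus the 75th percentile of their array, so that 0 is the 75th percentile, and a difference of 1 is a doubling. A probe's level depends on its sequence, so levels were not compared between genes. Between 71.8% and 80.2% of the spots of an array were well above background and none was saturated. The 12 genes tested for luminal and glandular epithelium and the 12 for stromal fibroblasts were well above background on all 20 arrays. The early array of cow 4 (day 49) stood apart: its median correlation with the other early arrays was 0.941, against 0.965 to 0.985 for the rest, of which the early array of cow 9 was the lowest. Of all genes tested, 51.4% lay outside the range of the other 9 early arrays on the array of cow 4 and 31.5% on that of cow 9, against 6.68% to 25.7% on the other 8. Enzyme differences between the periods that rest on either array are therefore given with and without that cow.

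None of the 10 enzyme genes passed the test of late against early over all genes (limma with cow as a block, Benjamini-Hochberg adjusted p at most 0.05). Of all 19423 genes, 259 passed, or 1.33%; 151 were lower and 108 higher in the late period, a split that became 126 lower and 144 higher with another background correction (normexp). At an unadjusted p under 0.05, 3 of the 10 enzyme genes were named: TBXAS1, PTGDS and PTGS1, all lower late. Over all genes that looser limit named 22.6%, and 10.1% in the lower direction, so 3 of 10 is not far from the background. The enzymes' differences were negative for 6 genes and positive for 4, with a median of -0.15 on the log2 scale against 0.02 over all genes.

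**Figure D1:**
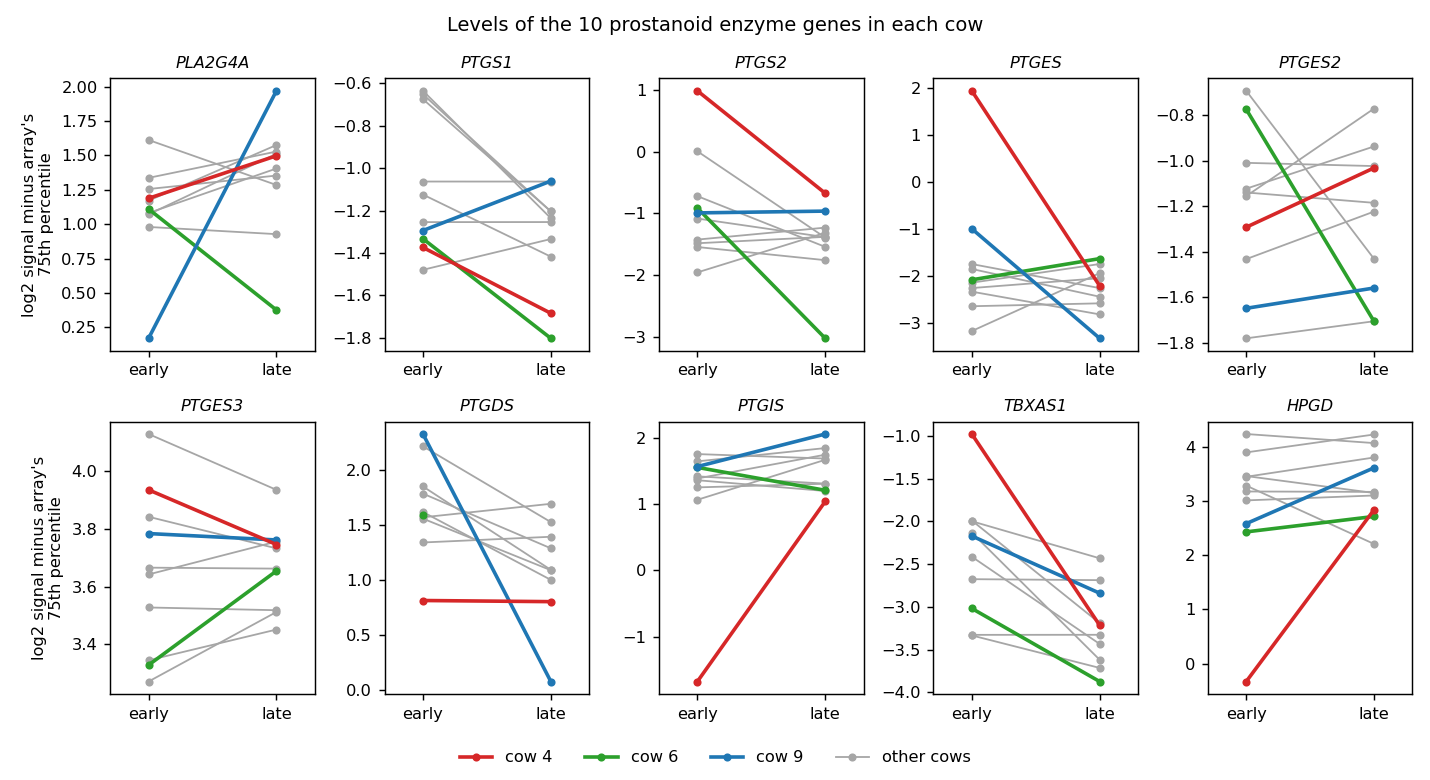
Level of each enzyme gene (log2 signal minus the array's 75th percentile, a separate scale in each panel) in the early and late biopsy of each of 10 cows, with a line joining the biopsies of 1 cow. Cow 4 (red) has the highest early PTGES, PTGS2 and TBXAS1 and the lowest early PTGDS, PTGIS and HPGD, and its late values lie with or near those of the other cows; PTGDS of cow 6 has an early value only.

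PLA2G4A, the cytosolic phospholipase that frees arachidonic acid, had a small positive difference that came largely from cow 9. Its early level ran from 0.17 through a median of 1.14 to 1.61, and its late level from 0.38 through 1.45 to 1.97. The ranges overlapped: 1 late value, that of cow 9, lay above the highest early value, and the lowest early value was also that of cow 9. The late-minus-early difference was 0.25 ± 0.19 (SE, n = 10 cows; limma adjusted p = 0.460), with 7 cows higher late. Without cow 9 it was 0.07 ± 0.12 (adjusted p = 0.762). The single probe lies near the 3′ end of the transcript, at chr16:65866524-65866583 of Btau_3.1, the build named in the file headers, on the plus strand.

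The cyclooxygenases were both lower late on the probes that represent them, and neither passed the test. PTGS1, the form made by many cell types at rest, ran from -1.48 through -1.19 to -0.63 early and from -1.80 through -1.24 to -1.06 late. Its 3 highest early values, -0.67 in cow 3, -0.63 in cow 8 and -0.65 in cow 10, lay above every late value, while the other 7 overlapped the late range. The difference was -0.24 ± 0.10 (limma adjusted p = 0.194), lower in 7 of 10 cows. It was not seen on another PTGS1 probe that was also well above background on all 20 arrays, whose difference was 0.00 ± 0.07. That probe starts at base 1571 and the probe used at base 2535 of the transcript. In Btau_3.1 the first is placed at chr11:96356791-96356825, which spans 35 bases, fewer than its own 60. On the minus strand that lies downstream of the probe used, at chr11:96356831-96356890, against their order in the transcript. The reason for the unlike values was not tested.

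PTGS2, the inducible cyclooxygenase that limits prostaglandin output in many stimulated cells, varied more between cows than PTGS1. Early levels ran from -1.96 through -1.04 to 0.99, and late levels from -3.03 through -1.38 to -0.67. The highest early values were 0.99 in cow 4 and 0.01 in cow 10, and these 2 lay above every late value. Cow 6 had the lowest late value, -3.03, against -1.76 for the next one. The difference was -0.55 ± 0.26 (limma adjusted p = 0.231), lower in 6 of 10 cows, and -0.43 ± 0.26 without cow 4 (adjusted p = 0.357). The difference of cow 6, -2.11, was larger in size than that of cow 4, -1.66, so the mean rested on cow 6 as well.

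PTGS2 was represented by the probe nearest the 3′ end of its transcript, which starts at base 3314 and was well above background on all 20 arrays. The other PTGS2 probes start at bases 597 and 807, and they are shown because they measure the same transcript far from that end and were nearly dark:
PTGS2 probe at base 597: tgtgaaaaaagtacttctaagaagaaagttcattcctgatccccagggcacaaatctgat
PTGS2 probe at base 807: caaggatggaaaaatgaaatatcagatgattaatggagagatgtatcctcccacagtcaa
The first lies at chr16:65516536-65516595 of Btau_3.1 on the minus strand, and the second spans chr16:65515616-65515786, more than its own length, so its bases join separate stretches of the genome. The probe at base 597 was well above background on 3 arrays, all early, and the probe at base 807 on 0 arrays. Both were left out of the test for that reason. The difference on the probe at base 597, -0.85 ± 0.25, is a description of a signal at the background on most arrays.

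The 3 prostaglandin E synthases differed in how much they varied. PTGES, the inducible microsomal synthase that acts with PTGS2, had the widest early range among them. PTGES2, a second membrane-associated synthase, and PTGES3, a cytosolic synthase that is also the Hsp90 co-chaperone p23, varied little. None passed the test.

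PTGES ran from -3.17 through -2.11 to 1.95 early and from -3.32 through -2.23 to -1.62 late. The top early value, that of cow 4, was far from the next, -0.99 in cow 9, and both lay above every late value. The difference was -0.57 ± 0.44 (limma adjusted p = 0.457), with 5 cows lower and 5 higher. It was -0.17 ± 0.30 without cow 4 (adjusted p = 0.760) and 0.10 ± 0.20 without cows 4 and 9 (adjusted p = 0.805), so its direction rested on these cows.

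Of the 3 PTGES probes, a pair are near copies placed at the same site, chr11:103800389-103800448 of Btau_3.1 on the minus strand. They differ at 2 of 60 bases, C10A and C59A, with positions counted from 1 at the 5′ end of the probe and the base of the probe used for PTGES first. Their first 30 bases are shown with the differing base in capitals, because the pair tests how far a small change in the probe moves the value:
PTGES probe used: ttttggaacCtaacgaccttctgaatccag
PTGES near copy: ttttggaacAtaacgaccttctgaatccag
The mean level was -1.72 early and -2.29 late on the probe used, and lower on the copy, at -2.20 and -2.73. The late-minus-early difference moved less: it was -0.57 ± 0.44 on the first and -0.54 ± 0.45 on the copy. On the third probe, at another site of the transcript, it was -0.53 ± 0.34. The early array of cow 4 was the highest early array on all 3 probes, at 1.95, 1.53 and -0.48 against at most -0.99, -1.51 and -3.32 in the others.

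PTGES2 ran from -1.78 through -1.15 to -0.69 early and from -1.71 through -1.20 to -0.77 late. Its difference was -0.05 ± 0.13 (limma adjusted p = 0.837; 95% interval -0.34 to 0.24), and its 3 probes gave -0.05, -0.05 and -0.06. PTGES3 ran from 3.27 through 3.65 to 4.13 early and from 3.45 through 3.70 to 3.94 late, with a difference of 0.03 ± 0.07 (adjusted p = 0.849; 95% interval -0.13 to 0.18). The late range of PTGES3 lay wholly inside its early range. These intervals leave room for changes of up to about 0.34 log2 units for PTGES2 and 0.18 for PTGES3.

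PTGDS, which makes prostaglandin D2 and also carries lipophilic molecules outside cells, was lower late in 7 of the 9 cows with both values. The late spot of cow 6 was marked as an outlier by the scanner software, so cow 6 added no difference to the fit. Early levels ran from 0.81 through 1.61 to 2.33, and late levels from 0.08 through 1.09 to 1.70. The ranges overlapped, with 4 early values above the highest late value and 2 late values, those of cows 4 and 9, below the lowest early value. The difference was -0.57 ± 0.22, or 1.48-fold lower late (95% interval 1.07 to 2.07; limma adjusted p = 0.165).

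Cow 9 had both the highest early and the lowest late PTGDS value, a difference of -2.26, and without it the estimate was -0.36 ± 0.12 (adjusted p = 0.157). A second PTGDS probe had a value on every array and gave -0.72 ± 0.26, lower in 9 of 10 cows (adjusted p over all probes = 0.134). The probes are printed because they lie in different parts of the transcript and still gave the same direction:
PTGDS probe used, base 540: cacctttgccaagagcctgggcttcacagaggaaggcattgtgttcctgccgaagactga
PTGDS second probe, base 278: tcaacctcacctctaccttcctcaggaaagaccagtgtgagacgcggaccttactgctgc
They span chr11:109312713-109313379 and chr11:109314130-109314295 of Btau_3.1, on the minus strand. Both spans exceed the 60 bases of the probe.

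PTGIS, the prostacyclin synthase found above all in vessel walls and smooth muscle, had a positive difference that was mostly that of 1 cow. Early levels ran from -1.68 through 1.41 to 1.76 and late levels from 1.04 through 1.49 to 2.06. The early value of cow 4, -1.68, was far below the next, 1.07, and the other 9 early values overlapped the late ones. The difference was 0.37 ± 0.25 (limma adjusted p = 0.389), with 6 cows higher, and 0.11 ± 0.11 without cow 4 (adjusted p = 0.556).

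The 4 PTGIS probes gave differences of 0.54, 0.09, -0.06 and 0.37 in order along the transcript, so their signs differed. On all 4 the early array of cow 4 was the lowest early array, by a wide margin on 3 of them: -7.10 against at least -3.72 on the first, -6.22 against at least -4.16 on the second and -1.68 against at least 1.07 on the probe used. On the remaining one it was -1.76 against at least -1.29. The probe whose early value in cow 4 lay farthest from the median of the others was:
PTGIS probe at base 336: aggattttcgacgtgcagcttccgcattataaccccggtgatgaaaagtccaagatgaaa
It lies at chr13:78637144-78637203 of Btau_3.1 on the minus strand.

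TBXAS1, the thromboxane A synthase of platelets, monocytes and macrophages, showed the most regular difference among the 10 genes. Early levels ran from -3.33 through -2.29 to -0.98 and late levels from -3.87 through -3.27 to -2.43. In 6 cows the early value lay above the highest late value, and in 4 the late value lay below the lowest early value, but the groups overlapped. By cow, from 1 to 10, the differences were -1.02, -0.38, -0.43, -2.24, 0.00, -0.86, -1.20, -0.01, -0.67 and -1.49, so that 9 of 10 were below 0 and those of cows 5 and 8 were near it.

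The mean TBXAS1 difference was -0.83 ± 0.20, or 1.78-fold lower late (95% interval 1.31 to 2.41), and it missed the threshold (limma p = 0.00158, adjusted p = 0.0659). Without cow 4, the cow of the largest difference, it was -0.67 ± 0.16 (adjusted p = 0.072). It passed in 1 of 24 alternative settings, with cow as a random effect (adjusted p = 0.0444); over the settings the adjusted p ran from 0.0444 to 0.9999.

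The second TBXAS1 probe gave nearly the same value, -0.84 ± 0.18, and was lower late in 10 of 10 cows. In a fit of each of 33764 probes on its own it passed (adjusted p = 0.0494), where 370 probes or 1.1% of all did, and it was the only one of the 22 enzyme probes tested that did. The probes are not independent, because they overlap by 16 bases. The shared bases are in capitals in the 30 bases of each probe around the overlap:
TBXAS1 second probe, its 3′ end: tgttaaaacaccacCGAAGCAGTTGAAAGC
TBXAS1 probe used, its 5′ end: CGAAGCAGTTGAAAGCatgccaggcctatg
The first probe lies at chr4:107151425-107151484 and the other at chr4:107151469-107151528 of Btau_3.1, on the plus strand.

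**Figure D2:**
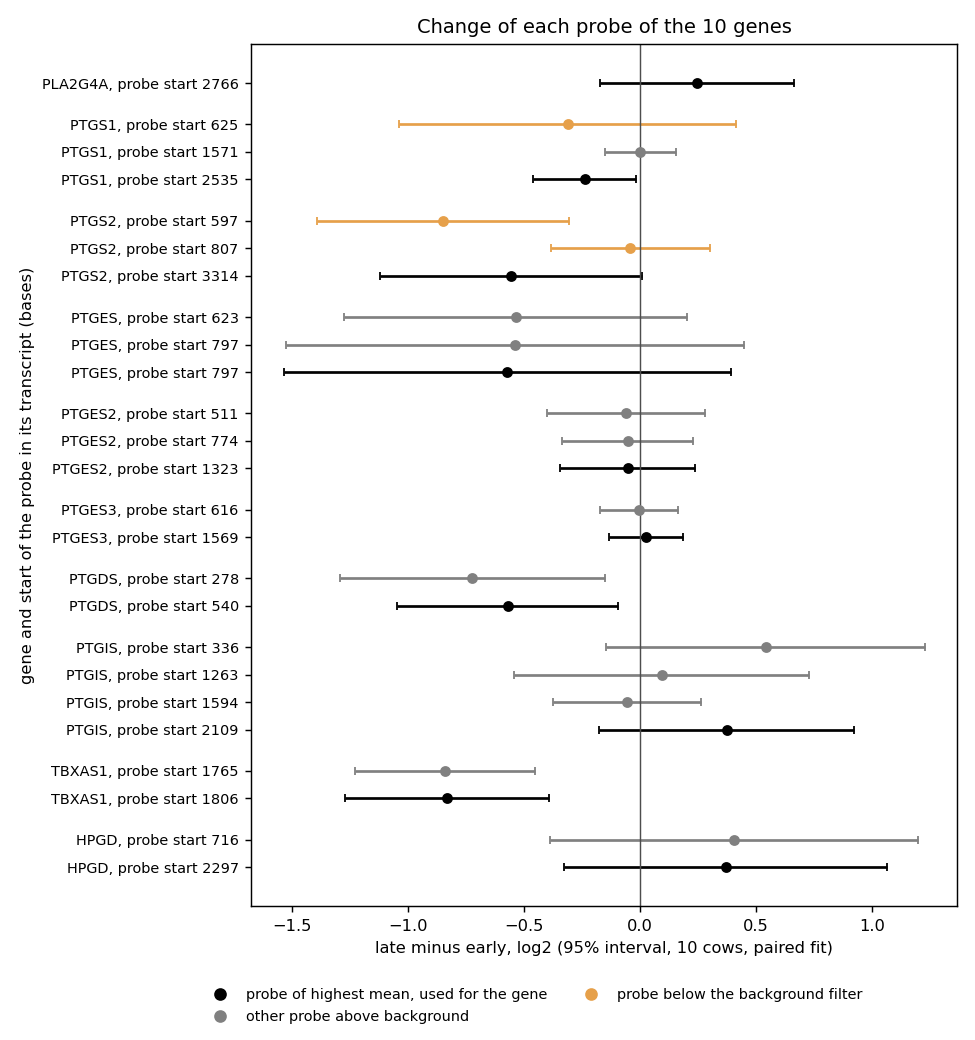
Late-minus-early difference (log2, points) with its 95% interval (bars) for each of the 25 probes of the 10 enzyme genes, named by the base of the transcript where the probe starts; the fit used 10 cows, or 9 for the PTGDS probe at base 540. Both TBXAS1 and both PTGDS intervals lie below 0, as do those of the PTGS1 probe used and of the PTGS2 probe at base 597. PTGIS probes fall on both sides of 0, and orange probes, that PTGS2 probe among them, were below the background filter.

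Genes of macrophages and monocytes were lower late on the same arrays. Of 17 such genes tested, 5 passed the test, against 1.33% of all genes, and all 5 were lower: GPNMB by -2.94 ± 0.30, CD68 by -1.79 ± 0.22, VSIG4 by -1.47 ± 0.16, TYROBP by -1.07 ± 0.18 and MSR1 by -0.85 ± 0.13 (limma adjusted p = 0.00405 to 0.0310). The median difference of the list was -0.72, and 16 of 17 were negative. The list was chosen with earlier results of these data known, so its count is not independent support. The mean level of the list ran from -0.75 to 0.78 early and from -1.35 to 0.20 late, and it was lower late in 10 of 10 cows.

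By cow, from 1 to 10, the late-minus-early difference of the list's mean was -1.14, -0.60, -0.20, -1.93, -0.23, -0.96, -0.87, -0.35, -1.28 and -0.998. Cow 4 had the largest difference in both the list and TBXAS1. Cow 3 had the smallest in the list but not in TBXAS1, and cow 9 had a larger one than cow 10 in the list and a smaller one in TBXAS1. The 3 genes whose levels followed TBXAS1 most closely over the 20 arrays, after the period means were removed, were CSF1R (Pearson r = 0.87), BRB (0.87) and CD14 (0.86). CSF1R and CD14 are on the macrophage and monocyte list. The arrays share cows and slides, so these are descriptions.

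Of the 3 platelet and megakaryocyte genes tested, 0 passed, and their median difference was 0.10. Mast cell genes gave 0 of 6, with a median of -0.32, and the mean of that list was lower late in 9 of 10 cows. Of 8 neutrophil genes 1 passed, FCGR3A at -0.97 ± 0.13 (limma adjusted p = 0.0104). The neutrophil median was 0.01, and the list mean was lower late in 5 cows. Of 12 T and NK cell genes 1 passed, NKG7 at -1.20 ± 0.19 (limma adjusted p = 0.0258). Their median was -0.18, and the list mean was lower late in 9 cows. Each count is to be read against the same 1.33%. In bulk tissue fewer cells of a type and less RNA per cell cannot be told apart. Markers of the main tissue layers differed between the periods too. All 12 stromal fibroblast genes had negative differences, with a median of -0.31; 1 passed, HAND2 at -0.87 ± 0.18 (limma adjusted p = 0.0453), and the mean of the list was lower late in 8 of 10 cows. Of the 12 epithelial genes 10 had positive differences, with a median of 0.33; 0 passed (4 had an unadjusted p under 0.05), and the mean was higher late in 8 cows. The part of macrophage number, or of any other cell type, in the differences of TBXAS1 and the other enzymes was not tested.

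**Figure D3:**
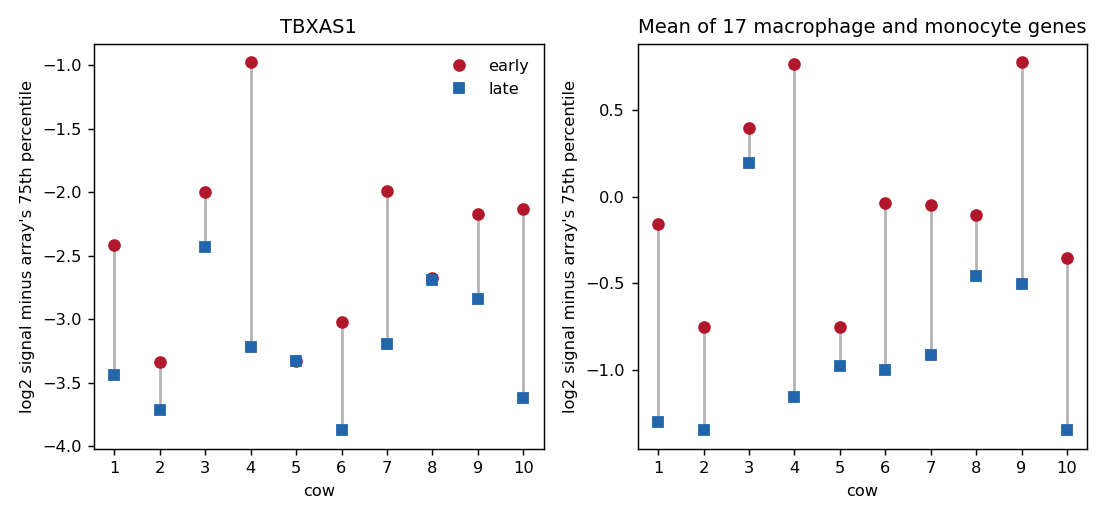
TBXAS1 level (left) and mean level of the 17 macrophage and monocyte genes tested (right), both as log2 signal minus the array's 75th percentile, in the early (circles) and late (squares) biopsy of each cow. The macrophage mean is lower late in all 10 cows; TBXAS1 is lower in 9, with cows 5 and 8 nearly level.

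HPGD, which starts the breakdown of prostaglandins E2 and F2alpha, ran from -0.33 through 3.23 to 4.23 early and from 2.21 through 3.16 to 4.22 late. The early value of cow 4, -0.33, was the only one below 2.21, and the other 9 early values lay from 2.43 to 4.23, within about the same span as the late ones. The difference was 0.37 ± 0.32 (limma adjusted p = 0.505), with 6 cows higher. Without cow 4 it was 0.06 ± 0.18 (adjusted p = 0.868), and without cows 4 and 9 it was -0.06 ± 0.15 (adjusted p = 0.838).

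The second HPGD probe lies upstream in the transcript and gave 0.41 ± 0.36. It is printed because it shows the low early value of cow 4 again, -2.74 against 0.70 to 2.94 in the other early arrays:
HPGD probe at base 716: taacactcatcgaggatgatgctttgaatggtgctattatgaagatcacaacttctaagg
Its place is chr8:6728470-6728529 of Btau_3.1, on the minus strand.

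On the early array of cow 4 some of the enzymes were far above the other early arrays and others far below, the synthases among both. Relative to the median of the other 9 early arrays, PTGES was higher by 4.08 log2 units (16.9-fold), PTGS2 by 2.07 (4.20-fold) and TBXAS1 by 1.44 (2.71-fold). HPGD was lower by 12.2-fold, PTGIS by 8.59-fold and PTGDS by 1.75-fold. PTGES2 and PTGES3 lay inside the range of the others. Among 19423 genes ranked by the size of that gap, PTGES stood at rank 156, HPGD at 236 and PTGIS at 376. In all, 6 of the 10 enzyme genes lay outside the range of the other early arrays, against the 51.4% of all genes given above, so the count is near the background of that array and the sizes are what set PTGES, HPGD and PTGIS apart.

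Other genes of the pathway moved on the same array, and the ones named here were picked after their values were seen. Of 20 hormone and cytokine genes that act on uterine prostaglandin synthesis, 13 lay above and 3 below the other early arrays, against 26.1% of all genes above and 25.3% below on that array. OXTR, the oxytocin receptor through which prostaglandin pulses are driven, was at 4.29 against -4.36 to 0.47. IL6, a cytokine, was at -2.87 against -8.26 to -5.04. The oestrogen receptor ESR1 was at -3.51 against -5.60 to -4.57 and the progesterone receptor PGR at -0.08 against -2.02 to -1.33, while the second oestrogen receptor ESR2 was below the rest, at -3.67 against -2.05 to 0.33. Endometrial levels of these receptors are known to follow the oestrous cycle. The hormone state of the cow at that biopsy was not measured here, and its part in these values was not tested.

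Among cell type markers on that array, neutrophil genes S100A12 (3.46 against -2.52 to -1.10), S100A8 (-1.44 against -4.70 to -3.19) and S100A9 (-3.17 against -7.0 to -5.07) were higher than in every other early array. The mean of the 8 neutrophil genes tested was -2.58 against -4.46 to -3.37, and the mean of the macrophage and monocyte genes was 0.77 against -0.75 to 0.78. Epithelial genes averaged 1.58 against -0.07 to 1.40, but they went both ways: KRT7 was at 1.90 against -3.98 to -1.40, while CLDN7 was at 0.24 against 0.28 to 2.24. Of the 12, 4 lay above the range of the others, 1 below and 7 inside. In the late biopsy the same cow had PTGES at -2.20, HPGD at 2.84 and PTGIS at 1.04, the last of them the lowest late value and the others inside the late range. The part of any cell type in these values was not tested.

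**Figure D4:**
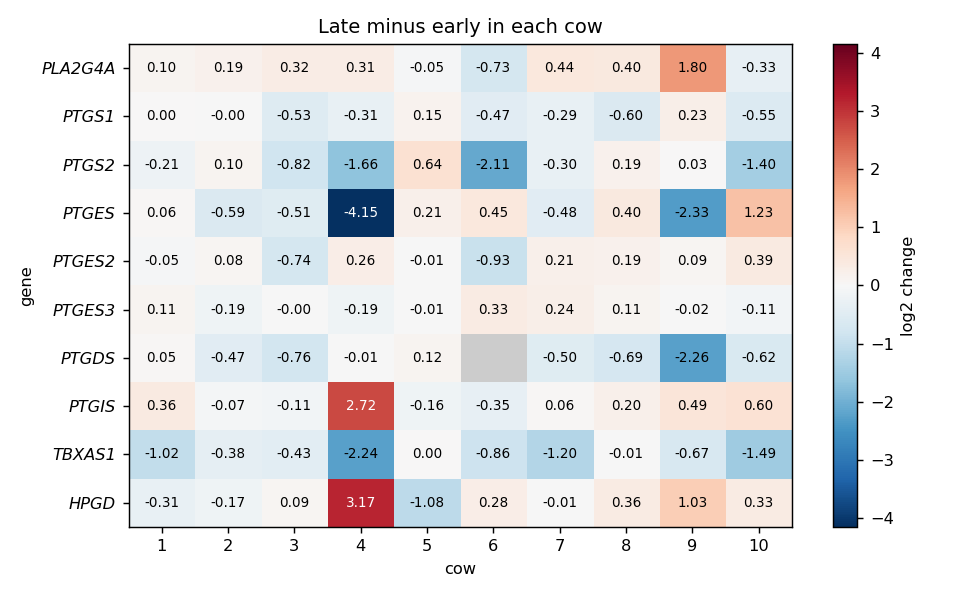
Late-minus-early difference (log2, colour and number in each cell) of the 10 enzyme genes (rows) in each cow (columns). The 7 largest in size are those of cow 4 (PTGES -4.15, HPGD 3.17, PTGIS 2.72, TBXAS1 -2.24), cow 9 (PTGES -2.33, PTGDS -2.26) and cow 6 (PTGS2 -2.11), followed by PLA2G4A in cow 9 (1.80); the grey cell is the missing PTGDS value of cow 6.

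The early array of cow 9 differed in another way. PLA2G4A was at 0.17 against 0.98 to 1.61 in the other early arrays and PTGDS at 2.33, just above 2.22, so 2 of the 10 enzyme genes lay outside the others' range, against 31.5% of all genes. Epithelial genes averaged -0.07 on that array against 1.04 to 1.58, and smooth muscle and pericyte genes averaged 3.0 against 1.37 to 2.33. The mean of the macrophage and monocyte genes was 0.78 against -0.75 to 0.77, the last of these being cow 4. PTGES, at -0.99, and the mean of the hormone and cytokine genes, at -1.04, were the highest early values after those of cow 4. The part of the tissue sampled in the cow 9 values was not tested.

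Whether the enzymes' differences went together across cows was asked over the 45 pairs of genes. No pair passed after adjustment by Pearson's r or by Spearman's rho, and 7 pairs by r and 2 by rho had an unadjusted p under 0.05 (two-sided permutation tests, 100000 resamples, or exact for the pairs of 9 cows). By Pearson's r the smallest p values belonged to PTGIS with HPGD (r = 0.90, permutation p = 0.0100, adjusted 0.193; rho = 0.60, permutation p = 0.0735), PTGIS with TBXAS1 (r = -0.78, permutation p = 0.0106, adjusted 0.193; rho = -0.62, permutation p = 0.0619) and PTGES with HPGD (r = -0.82, permutation p = 0.0128, adjusted 0.193; rho = -0.22, permutation p = 0.537). Without the 2 cows farthest from the median of the first gene, cow 4 among them each time, r was 0.45, -0.18 and 0.26, so these relations rest on those cows.

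By rho the 2 pairs with an unadjusted p under 0.05 were PTGS2 with TBXAS1 and PTGES2 with PTGIS. For PTGS2 with TBXAS1 rho was 0.78 (permutation p = 0.0103, adjusted 0.281) and r 0.69 (permutation p = 0.0278, adjusted 0.250) over 10 cows, and r was 0.74 without cows 4 and 6. For PTGES2 with PTGIS rho was 0.77 (permutation p = 0.0125, adjusted 0.281) and r 0.47 (permutation p = 0.177, adjusted 0.498), and r was 0.44 without cows 3 and 6. Another pair, PLA2G4A with PTGDS, was named after its values were seen: r was -0.85 over 9 cows (exact permutation p = 0.0334, adjusted 0.250), rho -0.63 (exact permutation p = 0.0760, adjusted 0.570), and r was -0.74 without cows 9 and 10. In these pairs r kept its sign without cow 4, at 0.60, 0.70 and -0.88. The genes whose levels followed PTGDS most closely over 19 arrays, after the period means were removed, were KCP (r = 0.87), SARDH (0.86) and ANGPT4 (0.81).

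Within each period the enzymes were set against the day after calving. No gene at all passed the test in either period (0% of 19423 in the early and 0% in the late period; 1095 and 268 had an unadjusted p under 0.05). Among the enzymes the smallest p was that of PTGS2 in the early period, with a slope of -0.37 ± 0.17 per 10 days (limma p = 0.0502, adjusted p = 0.880). In the late period it was that of PTGS1, at -0.04 ± 0.03 per 10 days (limma p = 0.148, adjusted p = 0.9999). Each slope rests on 10 cows, and the early array of cow 4 was taken at one of the lower early days. That array, of day 49, had the highest early PTGS2, 0.99 against 0.01 for the next, and the slope without it is not given here.

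The rest of the pathway was followed through 5 lists of 103 genes, of which 82 were tested. One passed: ALOX5, the 5-lipoxygenase that opens the leukotriene branch, ran at a mean of -4.15 early and -5.20 late, a difference of -1.05 ± 0.21 (limma adjusted p = 0.0426), lower in 9 of 10 cows. The call was lost without any 1 cow other than cow 5, while the difference stayed between -1.18 and -0.92. It was also lost with normexp, where the difference was -0.56 (adjusted p = 0.0566), and with slide as a fixed block, where it was -0.27 (adjusted p = 0.9999). That is 1 of 82 against the 1.33% of all genes given above. In the lipoxygenase and leukotriene list the other 19 genes did not pass, and the median difference of its 20 genes was 0.02.

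Upstream, the 18 genes of arachidonate release had a median difference of 0.08 and none passed. DAGLA, a diacylglycerol lipase, had a difference of 0.52 ± 0.12 (limma adjusted p = 0.0644), higher in 9 of 10 cows, and PLA2G15, a lysosomal phospholipase, -0.36 ± 0.13 (adjusted p = 0.134). DAGLA ran at a mean of -5.08 early and -4.56 late, and with normexp its difference was 0.23 (limma adjusted p = 0.0979). Of 14 other enzymes that make, reduce or degrade prostanoids none passed, and their median was -0.05. PTGR2, which reduces 15-keto prostaglandins after HPGD has acted, had a difference of 0.37 ± 0.09 (adjusted p = 0.066), higher in 9 of 10 cows, and AKR1B10, an aldo-keto reductase, 0.81 ± 0.28 (adjusted p = 0.131). The early array of cow 4 was the lowest early array for DAGLA (-5.66 against at least -5.48) and AKR1B10 (-8.90 against at least -8.75). It was just above the others for PTGR2 and inside their range for PLA2G15. Estimates without cow 4 are not given here for these genes.

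Downstream, none of the 10 receptor and transporter genes passed, and their median was -0.14. The prostaglandin E2 receptor PTGER4 had a difference of -0.50 ± 0.19 (limma adjusted p = 0.159) and PTGER3, another receptor of the same ligand, 0.53 ± 0.27 (adjusted p = 0.266). Of the 20 hormone and cytokine genes none passed either, with a median of -0.16. IL1RN, the interleukin 1 receptor antagonist, had -0.76 ± 0.32 (adjusted p = 0.188) and NR3C1, the glucocorticoid receptor, -0.35 ± 0.16 (adjusted p = 0.217). On the early array of cow 4, PTGER4 was at 2.04, IL1RN at -0.28 and NR3C1 at -2.71, against at most 1.27, -1.17 and -3.66 in the other early arrays. PTGER3 was at -6.25 against at least -5.10. By themselves these early values add to the size of the differences, and estimates without cow 4 are not given here.

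The slide moved with the period. Slides 1 and 2 carried early arrays only, slides 4 and 5 late arrays only, and slide 3 carried the early arrays of cows 9 and 10 and the late arrays of cows 1 and 2. With slide as a fixed block no gene passed (limma; an unadjusted p under 0.05 was reached by 366 genes). The standard errors of the enzymes grew to 0.36 to 2.18. TBXAS1 was then -0.26 ± 1.09, PTGDS -0.54 ± 0.98 and PTGS2 -0.18 ± 1.38. PLA2G4A, PTGS1, PTGES, PTGES3, PTGIS and HPGD changed sign, each by less than its error from 0 except PTGS1 at 0.54 ± 0.53 and HPGD at -1.76 ± 1.46.

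Within slide 3, which sets 2 early against 2 late arrays of different cows, TBXAS1 was -1.42 ± 0.22 (limma adjusted p = 0.458), PTGDS -0.73 ± 0.33 and PTGS2 -1.08 ± 0.42, with 0 genes past the threshold. These values mix cow with period. Early TBXAS1 was already higher in cows 9 and 10 (-2.17 and -2.13) than in cows 1 and 2 (-2.41 and -3.33). Early PTGS2 was too (-0.99 and 0.01 against -1.54 and -1.48), and so was early PTGDS (2.33 and 1.62 against 1.34 and 1.56). With slide as a random block TBXAS1 was -0.83 ± 0.22 (adjusted p = 0.113). Outside slide 3 the period and the slide cannot be told apart.

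**Figure D5:**
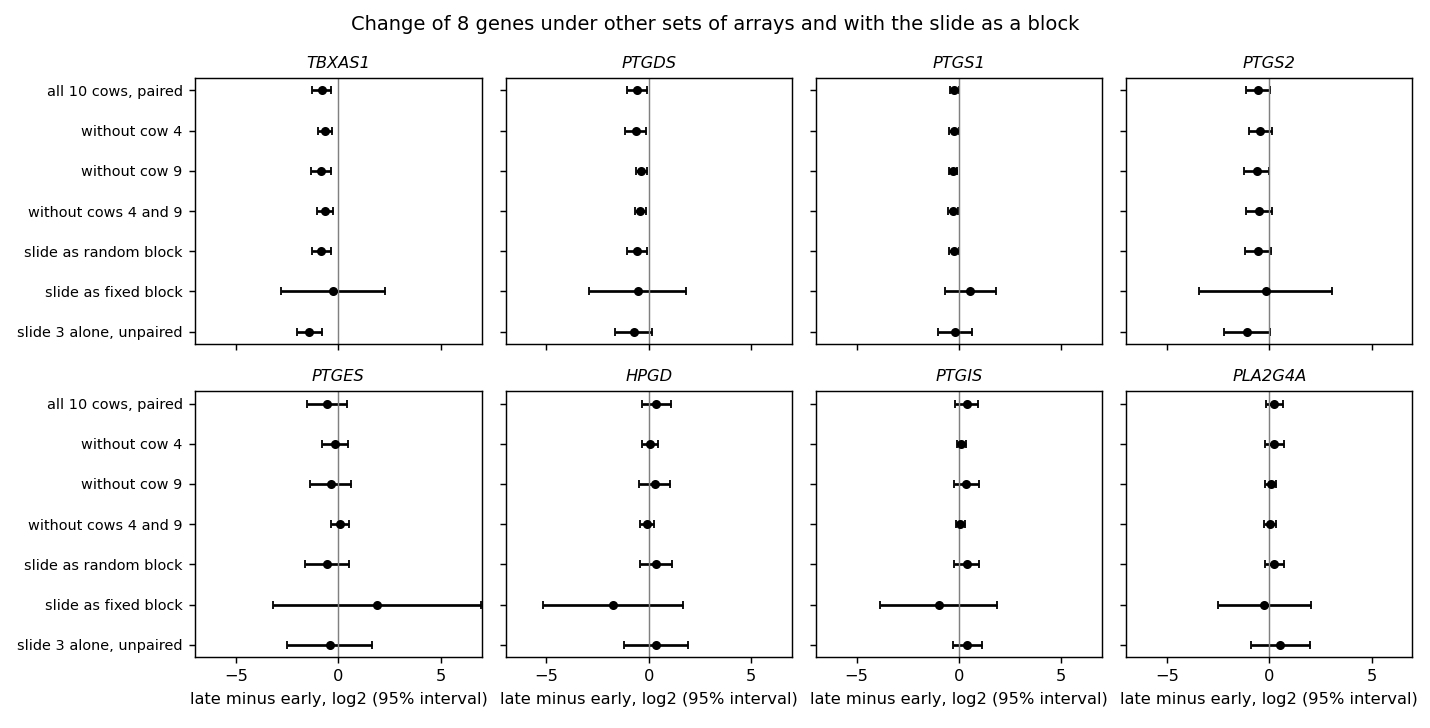
Late-minus-early difference (log2, points; bars, 95% interval) of 8 enzyme genes with all 10 cows, without cow 4, cow 9 or both, and with the slide as a random block, as a fixed block or restricted to slide 3. The points of TBXAS1, PTGDS and PTGS2 stay below 0 at every setting shown, and those of PTGES and HPGD cross 0 without cows 4 and 9. The intervals with slide as a fixed block all include 0. The slide 3 setting compares early arrays of cows 9 and 10 with late arrays of cows 1 and 2, so it mixes cow with period.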

How the data were processed

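The deposited scanner files hold, per the file headers, intensity values read with Agilent Feature Extraction 10.5.1.1: for each spot a background-subtracted processed signal, a mean signal and a local background. The deposited value table holds log2 values. Set against the scanner values, it was found to hold the same scaled signals after subtraction of each probe's median over the 20 arrays (correlation at least 0.99996). The column medians of that table were -0.153 to 0.0513; it served as an alternative.

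Values here are log2 of the processed signal after the array's own 75th percentile was subtracted. Control and outlier-flagged spots were dropped, and spots of a probe were averaged. A probe entered if well above background on at least 8 of 20 arrays (33764 did). That filter left out 3 of the 25 enzyme probes. Each gene took its brightest remaining probe by mean, so each enzyme was tested on 1 probe. Names came by accession (22205 probes), symbol (9847), synonym (372) or gene number (1171) from RefSeq's ARS-UCD2.0 table; 10058 probes kept the array's name. Late was set against early in limma 3.58.1 (R 4.3.3; two-sided, Benjamini-Hochberg over all genes, threshold 0.05) with cow as a block. Pairing follows the titles, animal numbers and design text; the late samples' source names number the cows differently. Arrays of a cow deviated from the period means with correlations of -0.11 to 0.76, above 0.1 in 8 of 10 cows, against a median of -0.03 between cows. The exceptions were cow 6 (-0.11) and cow 9 (0.06), which are among the cows with the largest enzyme differences. The late array of cow 6 was the lowest late array for 5 of the 10 enzymes. Separate cows were the replicates, and their number limits the precision.

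The enzymes and gene lists were chosen with earlier results of these data known. Named genes are all 10 enzymes; of each pathway list the genes past the threshold (at most 5 by p), or else the 2 of smallest p; the gene pairs of smallest p; and the 3 genes most alike to the 2 enzymes of smallest p. Alternatives were the block, background correction, scaling, filter, probe choice, variance, slide, and leaving out cows. The fit was tested on simulated data. Probe sequences and positions are those of the scanner files.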

Additional observations from a re-analysis of the deposited data

Results flagged for a closer look

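In each period, and for the difference between them, the lowest and highest cow of each enzyme was compared with the rest by Dixon's gap test. Of 30 groups 9 had a value that stood apart, and chance alone gives about 1 in 20 groups. The early array of cow 4 or its difference accounts for 5 of them: PTGES at 1.95 early, PTGIS at -1.68 early with a difference of 2.72, and HPGD at -0.33 early with a difference of 3.17. Cow 9 accounts for 3: PLA2G4A at 0.17 early with a difference of 1.80, and PTGDS with a difference of -2.26. The last is PTGS2 in the late biopsy of cow 6, at -3.03. A low or high early value and its difference are not separate observations.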

How the results depend on the processing

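Against 259 genes in all, 118 passed with no replicate block for the cow pairing, 731 with cow as a random effect, 116 with no filter on dim probes, 39 with slide as a random block, 0 with slide as a fixed block, 0 within slide 3, and 35 to 155 when 1 cow was left out. Of the 10 enzymes 0 passed, except 1 with cow as a random effect and 1 with each probe on its own, both times TBXAS1. Of the 82 pathway genes 1 passed; it was 0 with no replicate block, normexp, no filter, any slide setting or without cows 4 and 9, 2 with quantile normalization, 3 with cow as a random effect, and 0 to 1 without 1 cow. With slide as a fixed block the sign turned for PLA2G4A (-0.25), PTGS1 (0.54), PTGES (1.89), PTGES3 (-0.025), PTGIS (-0.996), HPGD (-1.76) and DAGLA (-0.27). Without cows 4 and 9 it turned for PTGES (0.10) and HPGD (-0.063). Leaving out 1 cow gave PTGES2 -0.10 to 0.045 and PTGES3 -0.0074 to 0.0504. The PTGES and HPGD differences correlated at 0.26 without their 2 farthest cows. TBXAS1 ran from -1.42 to -0.26, PTGDS from -0.73 to -0.36 and PTGS2 from -1.08 to -0.18 over 24 settings. Causes were not tested, except that fewer arrays or more block terms leave fewer degrees of freedom. Signal near background limits PTGS2 and PTGS1 to the probes that clear it.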
